A study of Polypedilum vanderplanki with 84 samples.

Results

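Block 3 of the ARId1 locus is a run of 4 neighbouring genes of the sleeping chironomid Polypedilum vanderplanki, from g16201 (PvLea17) through g16202 and g16203 to g16204 (PvLea4). Its members were chosen by gene identifier, as all rows of the expression table that belong to 1 of these 4 genes, and they account for 298 of 66333 transcripts and 4 of 18248 genes. The 4 genes are represented by very unequal numbers of transcripts: g16201 has 1, g16202 has 12, g16203 has 78 and g16204 has 207. All 4 genes and 69 of the 298 transcripts had a mean level above 1 TPM, the deposited unit, which corrects for transcript length and has the same total in every library, and were tested, while 30 transcripts (4 of g16203 and 26 of g16204) were listed at 0 in every library. The study had formed the Block from differential expression in these same libraries, so the osmotic responses below are not independent evidence that the genes belong together.

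Late embryogenesis abundant (LEA) proteins are hydrophilic, largely disordered proteins that fold on drying and are known for protecting other proteins and membranes when water is lost. In this chironomid, whose larvae survive almost complete loss of water, Lea genes were duplicated in tandem, and the ARId (anhydrobiosis-related gene island) regions hold most copies. PvLea17 and PvLea4 are 2 of these paralogs. No individual name was taken for g16202 and g16203, so they are called by identifier. Trehalose is the sugar that the insect accumulates before it dries.

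RNA was sequenced from Pv11, a cell line derived from this insect that survives drying after preconditioning with trehalose, in 84 libraries of 28 groups with 3 libraries each. In the stress experiment (54 libraries), the osmotic groups received NaCl (0.5% by the labels, while the study's methods also give another concentration), the sugar alcohol mannitol at 600 mM, or the sugar trehalose, also at 600 mM. Paraquat, which causes oxidative stress, was given at 20 µM, a heat group was kept for 15 min at 42 °C, and control cells received nothing. All of these were sampled at 1, 3 and 24 h. In the drying time course (30 libraries, from an earlier experiment), cells were held in 600 mM trehalose with a little medium and sampled after 0, 12, 24, 36 and 48 h (PreCondTre). After drying, the Rehydration samples were taken at 0, 3, 12, 24 and 72 h. Pv11 is 1 cell line, no genotype differed between groups, the study calls the 3 samples of each stress group biological replicates, and for the time course nothing is said on separate cultures, so that there the p-values may measure technical spread.

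Each library summed to at least 999998 TPM, the same total within rounding, with 24889 to 29846 transcripts above 0, and the number of reads behind it is unknown. In a single library the top 100 genes by level made up 29.8% to 57.4% of all TPM, so a change in them moves every other value. The cell line's own marker g7775, the gene downstream of the strong Pv11 promoter, was present in every library at 14117 to 64291 TPM. Of the libraries that bear on the Block, Control 3 h replicate 2 stood apart in its transcripts, PreCondTre 0 h replicate 2 was high for g16201 and g16202, and Mannitol 24 h replicate 3 was low for g16203 and g16204. The results that use their groups and that they move most are given with and without them.

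By level, 2 of the 4 genes were among the 4 most abundant genes of these cells. Over all 84 libraries, g16204 (PvLea4) had a mean of 10701 TPM and ranked 2 of 18248 genes, and g16203 had a mean of 9110 TPM and ranked 4. The other ends of the range were g16202, with 1536 TPM and rank 129, and g16201 (PvLea17), with 200 TPM and rank 654. None of the genes was listed at 0 in any library. The 4 genes together held 1.73% ± 0.0707 (SD, n = 3) of all TPM in Control 24 h, 5.34% ± 0.115 (SD, n = 3) in NaCl 24 h and 1.31% ± 0.0758 (SD, n = 3) in Rehydration 12 h, the highest and the lowest group. The make-up of the Block differed between groups as well. In Control 24 h, g16203 made up 49.5% and g16204 43.4% of the Block, whereas in NaCl 24 h g16204 alone made up 72.5% and g16203 made up 23.9%.

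PvLea17, the least abundant member, responded to salt at every time. The 3 libraries of g16201 held 43.1, 44.7 and 39.3 TPM in Control 1 h and 89.6, 85.7 and 95.4 TPM in NaCl 1 h. In Control 3 h they held 44.5, 44.4 and 44.3 TPM, against 178, 186 and 179 TPM in NaCl 3 h. In Control 24 h they held 50.4, 44.5 and 45.0 TPM, against 531, 511 and 502 TPM in NaCl 24 h. All salt-treated libraries lay above all control libraries of the same time, and the control TPM lay between 39.3 and 50.4 at all times. A call required a Benjamini-Hochberg adjusted p under 0.05 from limma, over the 9450 genes tested, and a fold change above 2 on the scale of log2(TPM + 1), on which all differences below are given. On that scale g16201 rose by 1.07 (SE 0.0701, adjusted p = 6.25e-16) at 1 h, by 2.01 (adjusted p = 2.12e-25) at 3 h and by 3.44 (adjusted p = 2.42e-33) at 24 h, when the ratio of the mean TPM was 11.0. The call at 1 h was close to the fold threshold: without replicate 3 of every group the difference was 0.98.

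PvLea4, the most abundant member, was the other gene that rose in salt. The libraries of g16204 held 7334, 7434 and 7296 TPM in Control 1 h and 13284, 11800 and 12990 TPM in NaCl 1 h, a difference of 0.79 (SE 0.0644, adjusted p = 3.40e-13) that was below the fold threshold. They held 8040, 8381 and 8675 TPM in Control 3 h and 21512, 23044 and 21206 TPM in NaCl 3 h, and g16204 rose by 1.39 (adjusted p = 1.42e-21). In Control 24 h they held 7594, 7103 and 7808 TPM, against 38434, 39964 and 37635 TPM in NaCl 24 h, where g16204 rose by 2.37 (adjusted p = 8.57e-29), a ratio of mean TPM of 5.16. NaCl and control libraries did not overlap at any time. The mean of 38677 TPM in NaCl 24 h was the highest level of any Block 3 gene in any group.

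The genes between them did not pass the fold threshold in salt. For g16203 the libraries held 8722, 8237 and 8680 TPM in Control 24 h and 12811, 12660 and 12785 TPM in NaCl 24 h, a difference of 0.58 (SE 0.0855, adjusted p = 2.22e-07) without overlap but under the fold threshold. For g16202 they held 1252, 1078 and 1214 TPM in Control 24 h and 1416, 1454 and 1379 TPM in NaCl 24 h, a difference of 0.26 (adjusted p = 0.00954). At 1 and 3 h, g16203 differed from the control by 0.06 and -0.05 (adjusted p = 0.622 and 0.626), and g16202 by -0.39 and -0.34 (adjusted p = 0.00027 and 0.000672). In TPM, 1 of the 4 genes rose at NaCl 1 h, where 1.74% of all genes tested were called up, 2 of 4 at NaCl 3 h, where the share was 2.85%, and 2 of 4 at NaCl 24 h, where it was 7.75%. None fell. The median difference of the 4 genes was 0.42, 0.67 and 1.47 at the 3 times, against -0.33, -0.75 and -0.17 for all genes tested.

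**Figure D1:**
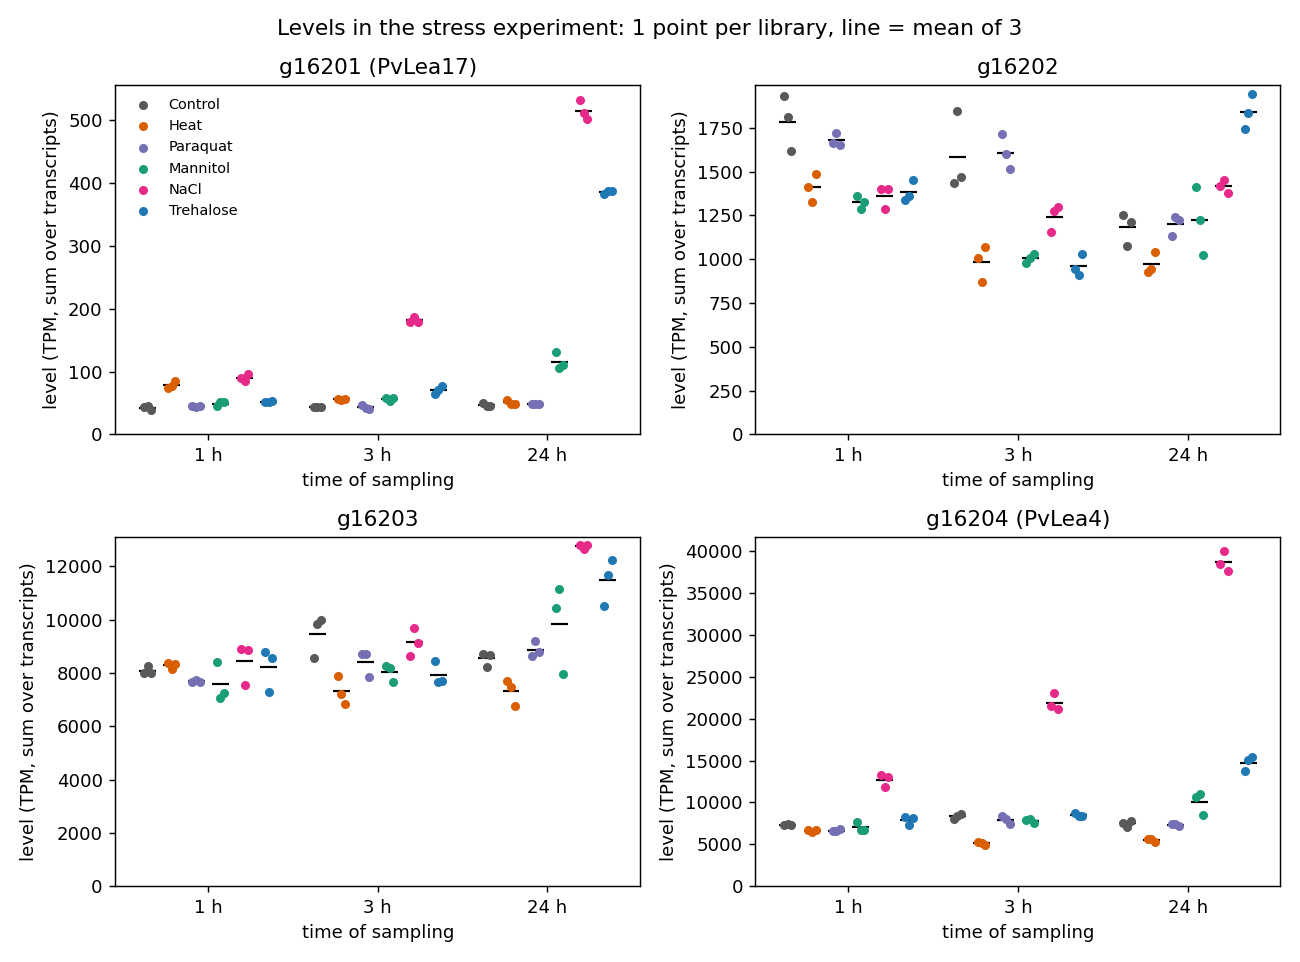
Level of each gene (TPM, summed over its transcripts) in the 54 libraries of the stress experiment, 1 point per library, a line at the mean of each group of 3, coloured by treatment and ordered by sampling time. NaCl libraries of g16201 and g16204 stand above the controls at each time, and Mannitol 24 h replicate 3 of g16203 lies at 7972 TPM below the other 2 libraries of its group.

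Because those medians differ from 0, TPM were also divided by a median ratio factor for each library (0.592 to 1.71). With that scaling the median over all genes was moved by over 0.1 in most osmotic comparisons, and the calls of g16201 and g16204 in salt were kept, with g16204 also called at NaCl 1 h (1.21, adjusted p = 1.70e-11). The background moved with the scaling too. In TPM 10.4%, 37.1% and 11.2% of all genes were called down at NaCl 1, 3 and 24 h. After scaling 3.45%, 12.1% and 11.1% were called up and 3.47%, 12.1% and 7.70% down, beside 2 of 4 Block 3 genes up at each time. The low values of g16202 in salt were not kept: its difference turned to 0.036 (adjusted p = 0.833) at 1 h and to 0.54 (adjusted p = 2.97e-05) at 3 h. Directions of g16202 and g16203 early in osmotic stress therefore hold only relative to the TPM total.

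PvLea17 rose with mannitol and with trehalose at 24 h, and no other member passed the fold threshold with either. The libraries of g16201 held 131, 106 and 110 TPM in Mannitol 24 h and 382, 387 and 387 TPM in Trehalose 24 h, all above the 44.5 to 50.4 TPM of the control. The gene rose by 1.29 (SE 0.0701, adjusted p = 1.09e-18) with mannitol and by 3.02 (adjusted p = 3.99e-31) with trehalose. At 3 h the differences were 0.35 (adjusted p = 4.41e-05) and 0.65 (adjusted p = 1.51e-10), and at 1 h 0.20 (adjusted p = 0.0184) and 0.28 (adjusted p = 0.00122). With median ratio scaling the difference at Trehalose 3 h was 1.33 (adjusted p = 7.52e-12), which passed the fold threshold, as 8.84% of all genes then did upward.

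PvLea4 came close to the threshold with trehalose. The libraries of g16204 held 13726, 15044 and 15380 TPM in Trehalose 24 h, above the control without overlap, and the difference was 0.97 (SE 0.0644, adjusted p = 2.11e-16). It passed the threshold with 1.02 when Trehalose 24 h replicate 1 was left out, with 1.00 without Control 24 h replicate 3, and with 1.14 after scaling, where 9.68% of all genes were called up. In Mannitol 24 h the libraries held 10637, 11060 and 8543 TPM, of which replicate 3 was the low one, and the difference was 0.42 (adjusted p = 7.59e-07), or 0.53 (adjusted p = 1.16e-09) without that library. At 1 and 3 h g16204 differed from the control by at most 0.10 in either direction with both compounds (adjusted p from 0.186 to 0.745). After scaling these differences were 0.32 (adjusted p = 0.0315) and 0.39 (adjusted p = 0.00291) at Mannitol 1 and 3 h, where they had been -0.07 and -0.10, and 0.38 (adjusted p = 0.0113) and 0.72 (adjusted p = 8.58e-07) at Trehalose 1 and 3 h, none past the fold threshold.

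The middle genes differed in sign between early and late sampling. In Trehalose 3 h the libraries of g16202 held 945, 908 and 1029 TPM against 1433, 1846 and 1469 TPM in Control 3 h, a difference of -0.71 (SE 0.0873, adjusted p = 3.12e-09), which was -0.02 (adjusted p = 0.902) after scaling. In Trehalose 24 h they held 1744, 1835 and 1941 TPM, above the control, and the difference was 0.64 (adjusted p = 4.68e-08). For g16203 the difference was 0.42 (adjusted p = 5.64e-05) in Trehalose 24 h and -0.25 (adjusted p = 0.00917) in Trehalose 3 h, and the latter turned to 0.44 after scaling. In Mannitol 3 h g16203 differed by -0.23 (adjusted p = 0.0165), which turned to 0.26 after scaling, and g16202 by -0.65 (adjusted p = 2.99e-08), which was -0.15 (adjusted p = 0.217) after scaling.

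Thus 1 of 4 genes was called up at Mannitol 24 h, where 8.46% of all genes were, and 1 of 4 at Trehalose 24 h, where 6.99% were. At 1 and 3 h of mannitol 0 of 4 were called by limma, with 2 and 3 of 4 at an unadjusted p under 0.05 and 3.82% and 25.2% of all genes called in either direction. At 1 and 3 h of trehalose 0 of 4 were called, with 2 and 3 of 4 at an unadjusted p under 0.05 and 3.25% and 30.2% of all genes called. After scaling, g16201 was called up at 3 h, where 8.84% of all genes were called up and 7.76% down.

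Osmolytes were also compared directly at the same time. NaCl was given at 0.5% by the labels and the other 2 at 600 mM. In the contrasts with NaCl, compound and dose therefore cannot be told apart. NaCl libraries of PvLea4 exceeded mannitol libraries by 1.49 (SE 0.0644, adjusted p = 2.02e-21) at 3 h and 1.95 (adjusted p = 1.15e-25) at 24 h, and trehalose libraries by 1.36 (adjusted p = 1.67e-20) at 3 h and 1.40 (adjusted p = 4.87e-21) at 24 h. PvLea17 was likewise higher in NaCl than in mannitol by 1.66 (SE 0.0701, adjusted p = 1.04e-21) at 3 h and 2.15 (adjusted p = 9.23e-26) at 24 h, and than in trehalose by 1.36 (adjusted p = 2.40e-19) at 3 h. The pair parted at 24 h against trehalose, where g16201 differed by 0.42 (adjusted p = 3.11e-06) and g16204 by 1.40. Trehalose exceeded mannitol past the threshold for 1 gene at 24 h, g16201, by 1.73 (adjusted p = 7.00e-22). Neither g16202 nor g16203 was called in any of the 9 contrasts. At 3 h 2 of 4 genes were called higher in NaCl than in mannitol (1.92% of all genes) and 2 of 4 than in trehalose (3.79%). At 24 h the counts were 2 of 4 against mannitol (4.62%) and 1 of 4 against trehalose (8.34%), and 1 of 4 was called higher in trehalose than in mannitol (1.27%). At 1 h 0 of 4 were called in the 3 contrasts (0.751%, 2.16% and 0.212% of all genes in either direction), with 2, 2 and 1 of 4 at an unadjusted p under 0.05. Between trehalose and mannitol at 3 h limma called 0 of 4 (2.46% of all genes in either direction), with 1 of 4 at an unadjusted p under 0.05. All 8 calls were kept without Mannitol 24 h replicate 3.

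The response to osmolytes changed with time. Each response was taken against the control of its own time, and the response at 24 h was compared with that at 1 h. With NaCl 2 of 4 genes had a larger response at 24 h, where 8.11% of all genes did, with mannitol 1 of 4 (14.8%) and with trehalose 2 of 4 (8.61%). PvLea17 was among them in all 3, by 2.37 (NaCl), 1.09 (mannitol) and 2.74 (trehalose). The mannitol difference was 0.69 after scaling and 0.97 without replicate 1 of every group, and lost the call in both. The other gene with trehalose was g16202 (1.00), which lost the call after scaling (0.89) and without replicate 2 of every group (0.92). After scaling 6.17%, 7.97% and 7.52% of all genes were called up.

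After heat or paraquat no member was called. After heat, PvLea17 was higher at 1 h: its libraries held 73.5, 77.8 and 84.5 TPM against 39.3 to 44.7 TPM in the control, a difference of 0.88 (SE 0.0701, adjusted p = 8.75e-13) without overlap but under the fold threshold. That difference was 0.33 (adjusted p = 0.00175) at 3 h and 0.13 (adjusted p = 0.151) at 24 h. PvLea4 was lower after heat: its libraries held 5268, 5167 and 4955 TPM in Heat 3 h, below the 8040 to 8675 TPM of the control, a difference of -0.71 (SE 0.0644, adjusted p = 8.86e-11). In Heat 24 h it differed by -0.44 (adjusted p = 1.89e-05). In Heat 3 h g16202 differed by -0.68 (adjusted p = 3.88e-07) and g16203 by -0.37 (adjusted p = 0.00444), so that g16201 was the member on the other side of its control. Of the 4 genes 0 were called at Heat 1, 3 and 24 h, where 1.28%, 0.487% and 1.79% of all genes were, with 3, 4 and 3 of 4 at an unadjusted p under 0.05. For paraquat the 12 differences lay between -0.17 and 0.08, 0 of 4 genes were called at each time (0%, 0% and 2.90% of all genes), and 1, 0 and 0 of 4 had an unadjusted p under 0.05. Scaling added no call of a Block 3 gene after heat or paraquat.

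Untreated cells were compared between the sampling times as well. For g16202 the control libraries held 1929, 1810 and 1616 TPM at 1 h and 1252, 1078 and 1214 TPM at 24 h, a difference of -0.59 (SE 0.0873, adjusted p = 6.00e-07). The other 3 genes differed by 0.14 or less between these controls (adjusted p from 0.0966 to 0.728). These values depended on the TPM total, against which the median gene was lower by 0.37. After scaling g16202 differed by -0.14 (adjusted p = 0.27), g16201 by 0.58 (adjusted p = 0.000274), g16203 by 0.53 (adjusted p = 2.95e-05) and g16204 by 0.48 (adjusted p = 0.000655), none past the fold threshold. Of the 4 genes 0 were called at Control 3 h (1.72% of all genes) and at Control 24 h (14.2%) against Control 1 h, with 3 and 1 of 4 at an unadjusted p under 0.05.

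**Figure D2:**
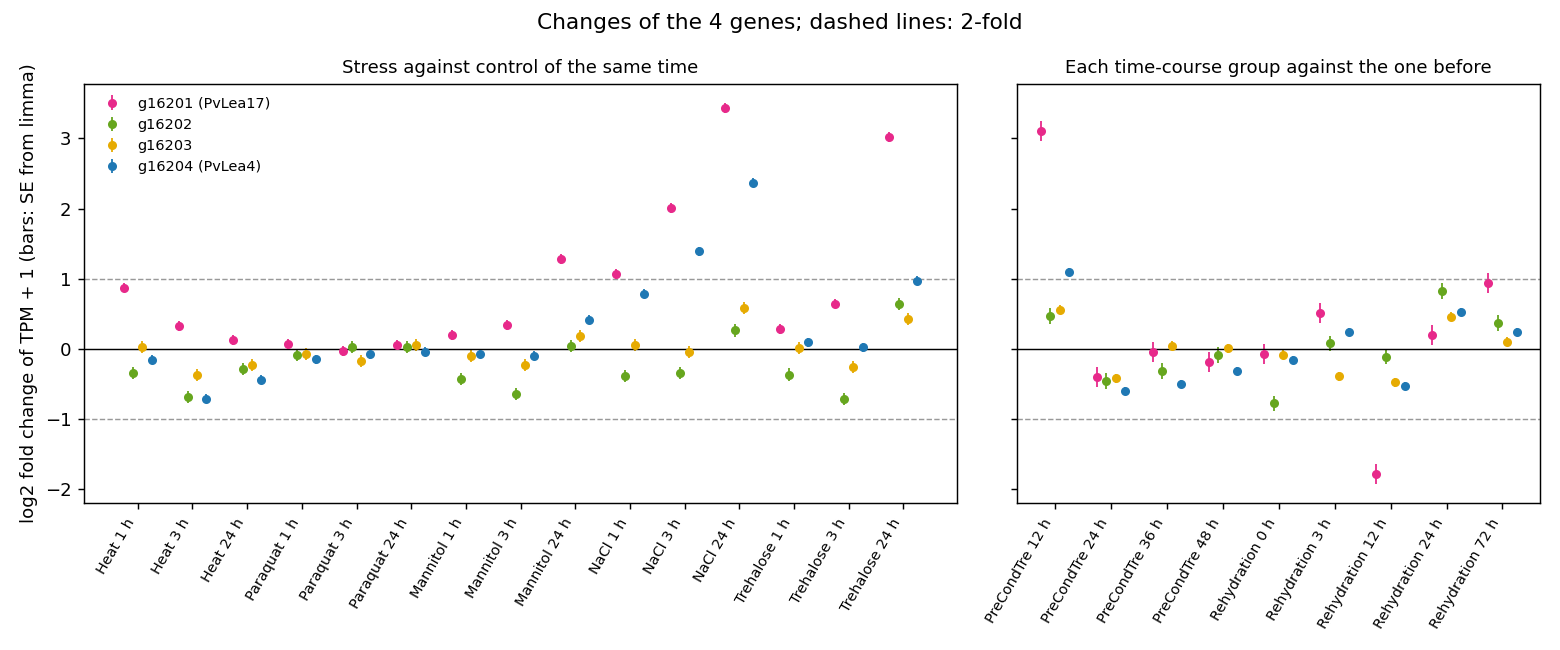
Difference of each gene on the log2(TPM + 1) scale with its standard error from limma, in 15 stress comparisons with the control of the same time (left) and in 9 comparisons of a time-course group with the group before it (right); dashed lines mark the 2-fold threshold. The rises lie in osmotic stress and at PreCondTre 12 h, and the 1 fall past the threshold is g16201 at Rehydration 12 h.

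In the drying time course, the first 12 h of preconditioning raised both named genes. The libraries of g16201 held 59.4, 94.3 and 63.3 TPM in PreCondTre 0 h, of which replicate 2 was the high one, and 545, 564 and 755 TPM in PreCondTre 12 h. PvLea17 rose by 3.10 (SE 0.144, adjusted p = 8.37e-15), a ratio of mean TPM of 8.59. The libraries of g16204 held 10554, 10716 and 9868 TPM at 0 h and 21100, 21952 and 23392 TPM at 12 h, and PvLea4 rose by 1.09 (SE 0.0568, adjusted p = 6.23e-14). For g16203 the same comparison gave 9680 ± 526 against 14246 ± 566 TPM (mean ± SD, n = 3 each), a difference of 0.56 (adjusted p = 9.01e-08), and for g16202 2349 ± 612 against 3194 ± 162 TPM, a difference of 0.47 (adjusted p = 0.00114). In TPM all 4 genes were therefore higher at 12 h in every library, and how many of all genes were so was not counted. The fold threshold was passed by 2 of 4, where 6.24% of all genes were called up. Without PreCondTre 0 h replicate 2 the differences of g16201 and g16202 were 3.30 (adjusted p = 2.55e-15) and 0.68 (adjusted p = 6.31e-07), with the same calls.

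Later preconditioning samples were compared with the one before them. PvLea4 was lower at each later preconditioning sample than at the one before it: its libraries held 14005 to 15260 TPM at 24 h, 9960 to 10810 TPM at 36 h and 7941 to 8631 TPM at 48 h. The steps were -0.59 (SE 0.0568, adjusted p = 6.09e-08), -0.50 (adjusted p = 2.37e-06) and -0.31 (adjusted p = 0.00323), each below the 2-fold threshold. PvLea17 held 441 to 518 TPM at 24 h and 393 to 402 TPM at 48 h, above the highest value of 94.3 TPM at 0 h. For g16203 the libraries stayed between 10123 and 12100 TPM from 24 to 48 h, and for g16202 they went from 2207 to 2443 TPM at 24 h to 1701 to 1833 TPM at 48 h. No gene was called in these 3 steps, where 5.76%, 0.212% and 4.29% of all genes were, and 4, 2 and 1 of 4 had an unadjusted p under 0.05. After scaling all 4 genes were lower at each of these 3 steps, by 0.10 to 0.66, so the level course of g16203 and g16201 holds relative to the TPM total.

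Between the last preconditioning sample and the first sample after drying (Rehydration 0 h), the gene that moved most was g16202. Its libraries held 1790, 1701 and 1833 TPM at PreCondTre 48 h and 945, 1144 and 1030 TPM at Rehydration 0 h, a difference of -0.77 (SE 0.112, adjusted p = 5.62e-06). The other 3 genes differed by -0.07 to -0.15 (adjusted p from 0.0339 to 0.718). In this step 0 of 4 genes were called, against 8.23% of all genes, with 2 of 4 at an unadjusted p under 0.05. In bulk RNA fewer transcripts per cell and fewer contributing cells cannot be told apart.

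PvLea17 was the 1 member with a call between neighbouring rehydration times. Its libraries held 373, 384 and 380 TPM at Rehydration 0 h, 612, 479 and 545 TPM at 3 h, 132, 177 and 166 TPM at 12 h, 194, 178 and 171 TPM at 24 h and 396, 308 and 345 TPM at 72 h. It fell by 1.78 (SE 0.144, adjusted p = 3.50e-10) from 3 to 12 h, and the libraries of these groups did not overlap. From 24 to 72 h the difference was 0.94 (adjusted p = 1.57e-05), just under the threshold. Without Rehydration 72 h replicate 2, the lowest of its group, it was 1.03, and after scaling 1.12, and in both the gene was called. After scaling 2.72% of all genes were called up in this step. From 0 to 3 h it was 0.52 (adjusted p = 0.00503).

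The other members had their lowest or near-lowest levels of the whole series at Rehydration 12 h. There g16203 held 5347, 6168 and 5855 TPM, the lowest of its 28 groups, and g16204 held 5911, 6396 and 6237 TPM, above only its 2 later heat groups. From 12 to 24 h g16202 differed by 0.83 (SE 0.112, adjusted p = 1.68e-05), from 1019 ± 73.6 to 1807 ± 111 TPM (SD, n = 3 each), g16203 by 0.46 and g16204 by 0.52. From 0 to 3 h of rehydration g16204 differed by 0.25 (adjusted p = 0.00104), which turned to -0.11 (adjusted p = 0.46) after scaling, and g16203 by -0.39 (adjusted p = 2.46e-05). Of the 4 genes 1 was called down at Rehydration 12 h against 3 h, where 2.42% of all genes were. In the steps to 3, 24 and 72 h 0 of 4 were called (8.57%, 1.82% and 5.78% of all genes in either direction), with 3 of 4 at an unadjusted p under 0.05 in each.

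**Figure D3:**
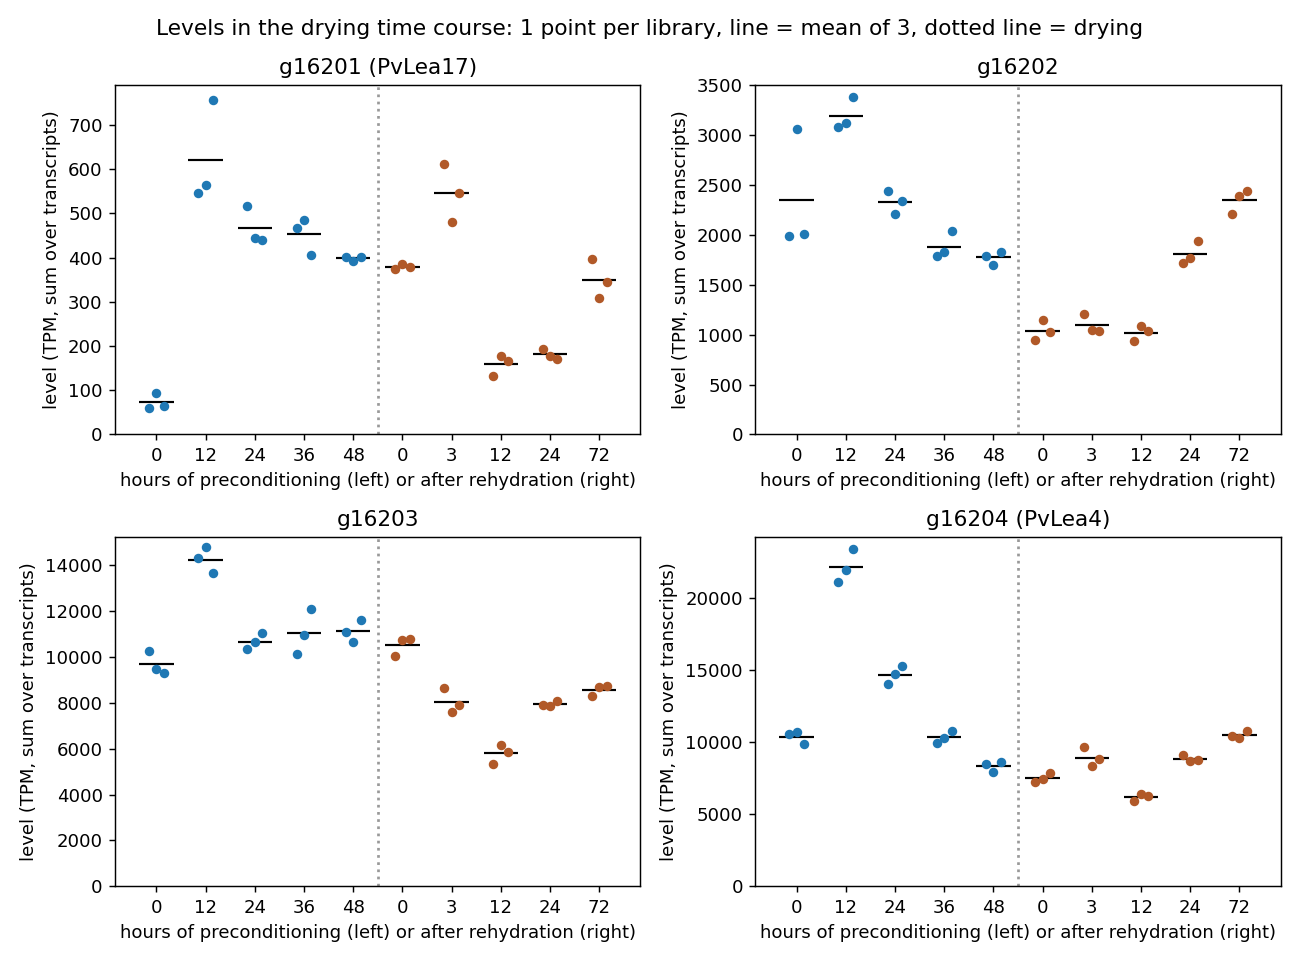
Level of each gene (TPM, summed over its transcripts) in the 30 libraries of the drying time course, 1 point per library and a line at the mean of 3, with preconditioning on the left and rehydration on the right of the dotted line that marks drying. All 4 genes have their highest group mean of the time course at PreCondTre 12 h, and g16202 lies at 1701 to 1833 TPM before the dotted line and at 945 to 1144 TPM after it.

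Against the start at PreCondTre 0 h, PvLea17 was called up in all 9 later groups, from 1.14 (adjusted p = 1.72e-07) at Rehydration 12 h to 3.10 at PreCondTre 12 h, and after 72 h of rehydration its mean TPM was still 4.84 times that of the start. The calls at Rehydration 12 and 24 h depended on the TPM total: after scaling the differences were 0.31 (adjusted p = 0.202) and 0.58 (adjusted p = 0.0188). PvLea4 was called in 1 of the 9 groups, PreCondTre 12 h, and at Rehydration 72 h it differed from the start by 0.02 (adjusted p = 0.807). For g16202 the differences at Rehydration 0, 3 and 12 h were -1.15, -1.07 and -1.18 (SE 0.112; adjusted p = 3.72e-09, 1.04e-08 and 1.74e-09), all called down. The start included PreCondTre 0 h replicate 2, which held 3056 TPM against 1988 and 2004 TPM. Without it the differences were -0.94, -0.86 and -0.97, under the fold threshold. Without replicate 2 of every group they were -1.02, -0.83 and -1.02, and the calls at Rehydration 0 and 12 h were kept. At g16203 0 of 9 were called, with 8 of 9 at an unadjusted p under 0.05; after scaling it was called down at Rehydration 12 and 24 h (-1.58 and -1.04). Scaling also brought calls down for g16204 at Rehydration 12 h (-1.58) and g16202 at 24 h (-1.11). Of all genes, 6.24%, 5.54%, 6.99% and 11.9% were called up at PreCondTre 12, 24, 36 and 48 h against the start. In rehydration these shares were 15.6%, 24.1%, 35.5%, 31.2% and 22.3% at 0, 3, 12, 24 and 72 h, and those called down at 0, 3 and 12 h were 8.94%, 4.81% and 2.43%. After scaling the shares called up were 12.7%, 10.6%, 7.74%, 7.15% and 7.75%, and those called down at 0, 3, 12 and 24 h were 11.3%, 11.3%, 8.14% and 7.66%.

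Set in order over the 28 groups, the means of g16201 ran from 42.4 TPM (Control 1 h) to 621 TPM (PreCondTre 12 h), 14.7-fold, and those of g16204 from 5130 TPM (Heat 3 h) to 38677 TPM (NaCl 24 h), 7.54-fold. The range was narrower for g16202, from 961 TPM (Trehalose 3 h) to 3194 TPM (PreCondTre 12 h), 3.32-fold, and for g16203, from 5790 TPM (Rehydration 12 h) to 14246 TPM (PreCondTre 12 h), 2.46-fold. Of the 27 pairs of neighbours in each order, the libraries overlapped in 19 for g16201, 25 for g16202, 24 for g16203 and 20 for g16204, so only the larger gaps separate groups. At the top, PreCondTre 12 h, Rehydration 3 h and NaCl 24 h overlapped in sequence for g16201, while for g16204 NaCl 24 h stood clear of the second group, PreCondTre 12 h, at 22148 TPM. After scaling the highest group of g16201 and of g16203 was NaCl 24 h.

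Within the Block, over the 28 group means of log2(TPM + 1), Pearson r was 0.73 for g16203 and g16204 and 0.39 for g16201 and g16202, the highest and the lowest pair. The order differed within each experiment. Over the 18 stress groups r was 0.875 for g16201 and g16204, 0.842 for g16201 and g16203 and 0.835 for g16203 and g16204. Over the 10 time-course groups it was 0.844 for g16202 and g16204 and 0.738 for g16203 and g16204. The genes were measured in the same libraries and share a common total in each, so these values are descriptions. The 3 genes most like PvLea17 were g16177 (r = 0.965) and g16186 (r = 0.958), both of ARId1, and the noncoding nc1100 (r = 0.957). Most like PvLea4 were g16169 of ARId1 (r = 0.833), g17489 (r = 0.826) and g12482 (r = 0.800). Over the 10 time-course groups alone these values were 0.785, 0.356 and 0.612. The gene g16169 also led for g16203 (r = 0.810), followed by g6222 (r = 0.800) and g8886 (r = 0.754). For g16202 the values were lower, with g1835 (r = 0.654), g1557 (r = 0.627) and g16207 of ARId1 (r = 0.626), and the first was r = 0.237 within the 18 stress groups. Of these 12 pairs, 0 stayed among the first 3 of their member within the stress groups and 1 within the time-course groups.

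Beside the rest of ARId1, the neighbours on both sides of the Block were called at NaCl 24 h in TPM, and at 3 h as well after scaling. The gene before it, g16200 (PvLil2), differed by 0.33 (adjusted p = 0.398) at NaCl 1 h and 0.77 (adjusted p = 0.0221) at NaCl 3 h, then rose by 5.04 (adjusted p = 1.19e-17) at 24 h; its level in Control and NaCl 3 h was only 0.53 to 3.90 TPM, where the pseudocount shrinks differences. The gene after it, g16205 (PvLea5), differed by 0.28 (adjusted p = 0.388) and 0.41 (adjusted p = 0.137), then rose by 2.04 (adjusted p = 3.88e-09). After scaling, g16200 rose by 1.40 (adjusted p = 1.61e-06) and g16205 by 1.29 (adjusted p = 1.31e-08) at NaCl 3 h. Block 4 was taken here as 4 genes, while the study counts more orthologs in it. In the genes of Block 2 (3 genes) and Block 4 (4 genes) 0 were called at NaCl 1 and 3 h in TPM, and after scaling 0 at 1 h and 1 and 2 at 3 h. Of the 28 tested genes of Block 1 8 and 18 rose, and after scaling 12 and 23. In Trehalose 24 h 3 of 3 genes of Block 2, 4 of 4 of Block 4 and 25 of 28 of Block 1 rose, against 1 of 4 in Block 3 (2 of 4 after scaling), and the same count at PreCondTre 12 h was 3 of 3, 4 of 4, 26 of 28 and 2 of 4. At NaCl 24 h it was 3 of 3, 2 of 4, 27 of 28 and 2 of 4, and at Mannitol 24 h 2 of 3, 1 of 4, 19 of 28 and 1 of 4. After scaling it was 3 of 4 in Block 4 at NaCl 24 h and 26 of 28 in Block 1 at Trehalose 24 h. Of all 9450 genes tested, 164, 269 and 732 rose at NaCl 1, 3 and 24 h. At Mannitol 24 h, Trehalose 24 h and PreCondTre 12 h 799, 661 and 590 did. After scaling 3.45%, 12.1% and 11.1% of all genes rose in NaCl. For Mannitol 24 h, Trehalose 24 h and PreCondTre 12 h these shares were 9.27%, 9.68% and 6.79%. The differences between Blocks were not tested, and the Blocks had been formed from such calls. Of the 2 Lea genes of g17258 to g17261 outside ARId1 that the table lists, 1 was tested, and it rose at NaCl 24 h, Trehalose 24 h and PreCondTre 12 h. Among 4 regulators named by the study (heat shock factor g3611 and the NF-Y subunits g7210, g5893 and g11889), 0 rose and 1, 2 and 1 fell at NaCl 1, 3 and 24 h, where 10.4%, 37.1% and 11.2% of all genes fell, while 1 rose and 2 fell at Trehalose 24 h, where 10.3% fell. After scaling 0, 1 and 0 fell in NaCl and 1 in Trehalose 24 h.

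By transcript, most of each gene's level sat in a few sequences. The single transcript of g16201 is the gene itself, and g16202.t1 held 92.1% of the mean level of g16202. For g16203, t1 held 77.5% and t96 was the other one above 10%, and for g16204, t1 held 50.8%, t283 18.4% and t210 13.3%. The remaining transcripts of g16203 and g16204 each held under 10% of their gene. Transcripts of 1 gene share most of their sequence, and so may the tandem paralogs. How the quantification divided shared reads between them was not tested. Since TPM corrects for the length of each transcript, a sum per gene can also depend on the division within the gene.

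Salt raised a larger part of the tested transcripts of PvLea4 than of those of the middle genes. Of the 35 tested transcripts of g16204, 6 rose at NaCl 1 h, 15 at 3 h and 21 at 24 h, and 0 fell. Of all 22728 transcripts tested, 1.57%, 4.44% and 7.10% were called up at these times, and 1385, 5273 and 1815 were called down. Of the 25 transcripts of g16203, 1, 5 and 2 rose, and of the 8 of g16202, 1 rose at each time, and at 24 h 1 of each fell. Without Control 3 h replicate 2, the transcripts that rose at NaCl 3 h were 16 of 35 for g16204, 4 of 25 for g16203 and 2 of 8 for g16202. At 24 h in salt g16204.t1 rose from 3910 to 22342 TPM in the mean (2.52, adjusted p = 2.13e-05), g16204.t283 from 541 to 3375 TPM (2.65, adjusted p = 1.20e-09), while g16204.t210, at 1418 and 6481 TPM in the mean, differed by 2.20 (SE 0.874, adjusted p = 0.0574) and was not called. In Trehalose 24 h 9 of 35 transcripts of g16204 rose, 0 of 25 of g16203 and 1 of 8 of g16202 (7.63% of all transcripts). At PreCondTre 12 h 4 of 35 of g16204 and 3 of 25 of g16203 rose (5.94% of all transcripts), among them g16204.t1 by 1.13 (adjusted p = 2.44e-07) and g16204.t283 by 1.13 (adjusted p = 0.000957). Over the 15 stress comparisons the 69 transcripts gave 73 rises and 16 falls in 1035 tests, where 2.67% of all transcript tests were called up and 5.85% down. Over the 9 time-course steps they gave 20 rises and 14 falls in 621 tests, where the shares were 3.48% and 2.58%.

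A single library set the values of the main transcripts at Control 3 h. In its replicates 1, 2 and 3 g16204.t1 held 3617, 258 and 4648 TPM, or 45.0%, 3.08% and 53.6% of the gene, while the gene sums were 8040, 8381 and 8675 TPM. In replicate 2 g16204.t283 held 53.5% of the gene, against 27.4% and 12.5%, and g16203.t96 held 28.6% of its gene, against 10.4% and 11.7%. The gene sums of that library were thus ordinary while its division among transcripts was not. With it, g16204.t1 rose by 2.70 (SE 0.446, adjusted p = 3.92e-06) at NaCl 3 h and by 1.35 (adjusted p = 0.0155) at Trehalose 3 h. Without Control 3 h replicate 2 these differences were 1.37 (SE 0.127, adjusted p = 1.92e-11) and 0.02 (adjusted p = 0.96), so the second call was lost.

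Usage was tested as the difference of a transcript's change in log2(TPM + 1) from the mean change of the other tested transcripts of its gene. Those transcripts count equally whatever their level, so the share of TPM itself was not tested. Over the 24 comparisons 65 of 1632 usage tests of Block 3 transcripts were called, or 3.98%, against 3.14% of all usage tests. Among the 6 main transcripts of g16202, g16203 and g16204, 1 was called, g16204.t210 at Trehalose 3 h, by -3.61 (adjusted p = 0.00938), in a comparison where 2.60% of transcripts were called down. It held 8.47%, 2.38% and 0.0316% of the gene in the Trehalose 3 h libraries and 2.74%, 20.3% and 19.3% in those of Control 3 h, whose replicate 1 overlapped them. Without Control 3 h replicate 2 the value was -3.25 (adjusted p = 0.0863), and the call was lost. At 24 h the share of g16204.t283 was low in every stress-experiment group, control included. It was 6.63% to 8.10% in Control 24 h against 22.9% to 34.9% in Control 1 h without overlap, and its group means were 7.20% to 11.1% in the 6 groups at 24 h. The usage test of Control 24 h against 1 h, chosen after the values were seen, gave -2.49 (adjusted p = 0.0819) for it, and did not pass. The difference in its share was not tested. The share of g16203.t96 was 5.98% ± 2.81 and 18.6% ± 2.61 (SD, n = 3 each) in the same controls, and its usage test gave -2.67 (adjusted p = 0.118).

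**Figure D4:**
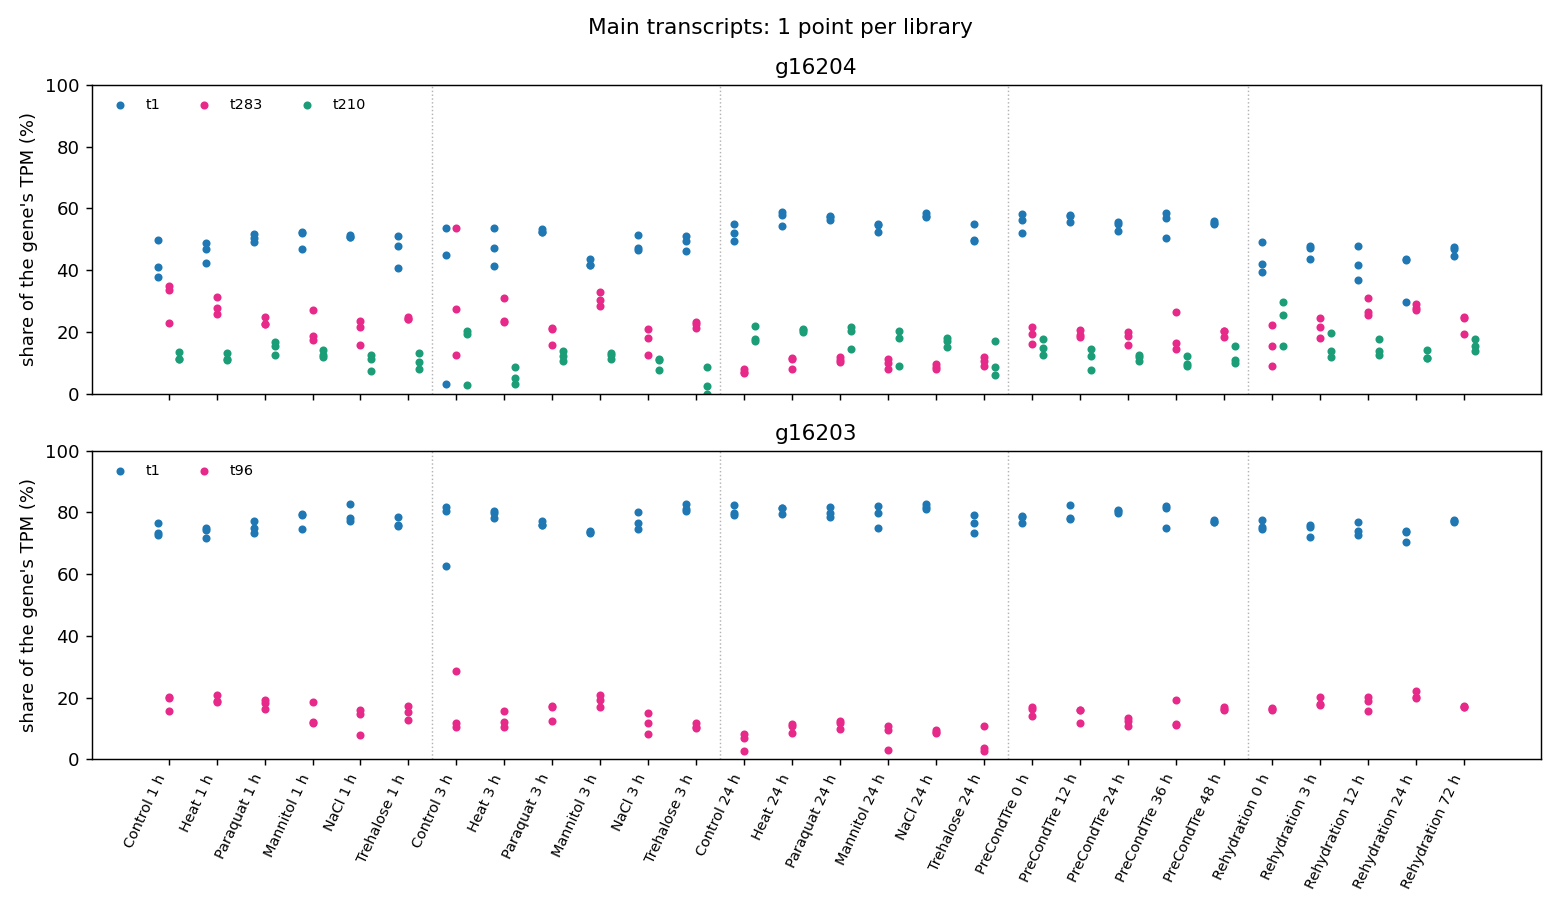
Share of the gene's TPM (percent) taken by each main transcript of g16204 (top) and g16203 (bottom), 1 point per library, in the 28 groups ordered by experiment and time. The lone low point of t1 in Control 3 h is 3.08%, and t283 is lower in all groups at 24 h of the stress experiment than in Control 1 h.

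From PreCondTre 48 h to Rehydration 0 h, 6 of the 35 tested transcripts of g16204 rose and 2 fell. Of the 25 of g16203, 0 rose and 3 fell, and none of g16201 or g16202 was called. A pair of minor transcripts of g16204 is described here, singled out after the values were seen. The transcript g16204.t259 was above 0 in all 54 stress libraries (77.7 to 2225 TPM) and all 15 preconditioning libraries (347 to 1084 TPM), but was listed at 0 in 10 of 15 rehydration libraries and reached at most 129 TPM in the others. Its libraries held 485, 518 and 593 TPM at PreCondTre 48 h and 1.56, 0 and 0 TPM at Rehydration 0 h, and it fell by 8.60 (SE 1.03, adjusted p = 3.16e-06), in a step where 6.16% of all transcripts fell and 6.26% rose. The other transcript of g16204 that fell in this step was g16204.t276, by 4.48 (SE 1.49, limma adjusted p = 0.0334). The transcript g16204.t151 was above 0 in all 15 rehydration libraries (23.7 to 537 TPM), was listed at 0 in 14 of 15 preconditioning libraries and in 46 of 54 stress libraries, and held at most 0.92 TPM in preconditioning. In the stress experiment it reached 211 TPM, within the rehydration range, and it rose by 3.29 (adjusted p = 0.0117) at NaCl 24 h. At Rehydration 0 h its libraries held 264, 158 and 23.7 TPM, after 0 in all 3 at PreCondTre 48 h, and it rose by 6.66 (SE 0.524, adjusted p = 9.26e-09). Against libraries at 0 these fitted differences depend on the pseudocount and are no bounds. Another transcript, g16204.t14, was listed at 0 in all 15 rehydration libraries, but also in 9 of 15 preconditioning and 29 of 54 stress libraries. At PreCondTre 48 h its libraries held 0, 0 and 0 TPM, so it did not differ over the drying step. The gene sum of g16204 differed by -0.15 over the same step. Since the values are estimates that divide shared reads, a value of 0 says only that the transcript was listed at 0, and this split was found in the libraries of 1 experiment.

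**Figure D5:**
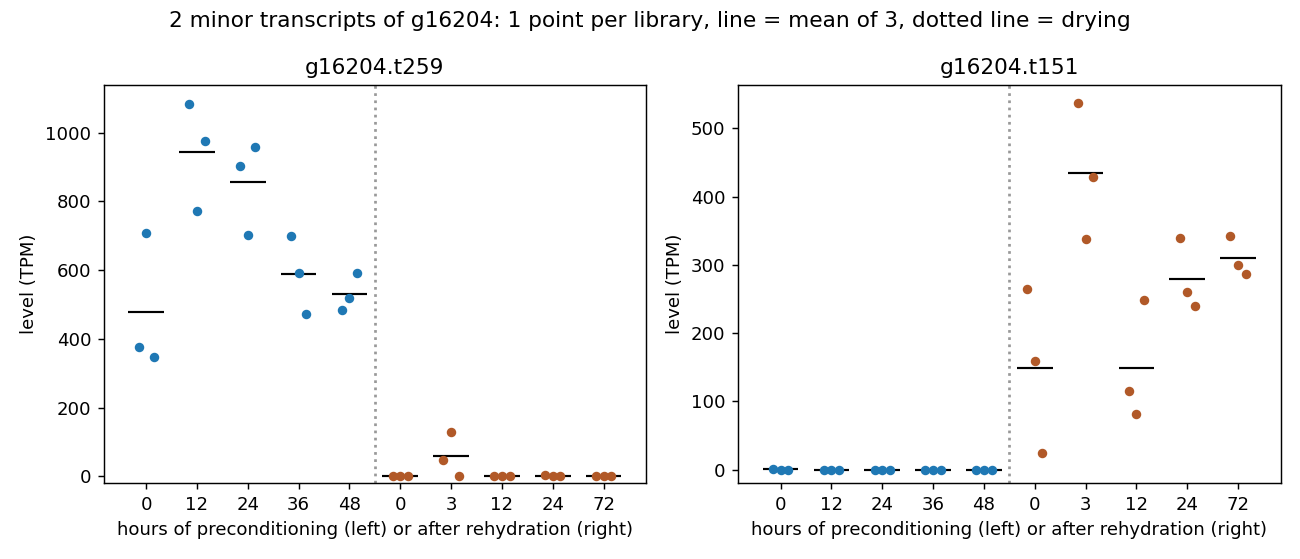
Level (TPM) of g16204.t259 (left) and g16204.t151 (right) in the 30 libraries of the time course, 1 point per library and a line at the mean of 3; the dotted line marks drying. Preconditioning libraries hold 347 to 1084 TPM of t259 and at most 0.92 TPM of t151, and rehydration libraries hold at most 129 TPM of t259 and 23.7 to 537 TPM of t151.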

How the data were processed

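The authors mapped the reads of 84 libraries to the coding sequences of their gene set (build Pv_5.2) with Bowtie2, quantified transcripts with RSEM through a Trinity utility, and tested mapped counts, which were not used here, with DESeq2 and edgeR. The deposited table holds TPM per transcript, which is already corrected for transcript length and scaled to 1 total per library, so that depth is unknown and a rise of abundant genes lowers all others. All 84 columns were matched to groups by name. TPM were summed per gene. Genes (9450) and transcripts (22728) with a mean TPM above 1 were fitted as log2(TPM + 1), a pseudocount that understates changes of low genes, with limma 3.58.1 in R 4.3.3, with 1 coefficient per group, a variance trend and 1 fit per experiment. Usage was tested with diffSplice of limma. p-values were adjusted (Benjamini-Hochberg) over all genes or transcripts; calls were 2-fold differences with adjusted p below 0.05. An exact permutation test of 3 against 3 cannot go below 0.1 and was not used. The tests were tested on simulated data. Figures were drawn with matplotlib 3.10.9.

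The members, lists and tests were chosen with earlier results of these data known. Named are the 4 genes, their transcripts holding at least 10% of the gene's mean level, the 3 genes most similar to each, the 2 neighbours of the Block, and lists by counts. Alternatives were median ratio scaling over 9254 genes, a pseudocount of 0.1, other filters, no trend, a fit of 2 groups, a stricter threshold, a replicate block, and each replicate or library left out; removals of single doubted libraries were added after seeing the data. No sequence or genome position was used.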

Additional observations from a re-analysis of the deposited data

Results flagged for a closer look

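In 5 of the 12 tests of whether a gene's response to an osmolyte differed between 24 h and 1 h, each response taken against the control of its own time, the difference was past the threshold. With NaCl the response of g16201 (PvLea17) was larger at 24 h by 2.37 (log2 scale, adjusted p = 2.63e-21) and that of g16204 (PvLea4) by 1.58 (adjusted p = 4.08e-17). With mannitol the response of g16201 was larger by 1.09 (adjusted p = 1.73e-11). With trehalose that of g16201 was larger by 2.74 (adjusted p = 2.17e-23) and that of g16202 by 1.00 (adjusted p = 1.37e-08). The shares of all genes called up in this test were 8.11%, 14.8% and 8.61% for NaCl, mannitol and trehalose. For g16202 the control itself was lower at 24 h than at 1 h by 0.59 in TPM and by 0.14 after scaling, and the part of that in the result was not tested. The mannitol value of g16201 and the trehalose value of g16202 did not pass the fold threshold after scaling (0.69 and 0.89), nor without replicate 1 (0.97, mannitol) or replicate 2 (0.92, trehalose) of every group.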

How the results depend on the processing

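Depth is unknown, so no counting limit can be given. Of 107 single gene results with an adjusted p under 0.05, the alternatives gave 941 values with the same direction and call, 16 that lost the call, 6 that gained it and 5 that turned direction. Many of the 107 were under the fold threshold, and those that stayed uncalled count as the same. The 941 is therefore no measure of how stable the calls are. The 5 turned under median ratio scaling: g16202 to 0.036 at NaCl 1 h and 0.54 at NaCl 3 h, g16203 to 0.26 at Mannitol 3 h and 0.44 at Trehalose 3 h, and g16204 to -0.11 at Rehydration 3 h against 0 h. Scaling left 3 of 5 changes of response between 1 and 24 h, and 2 of the 4 highest groups. With calls limited to 4-fold differences with adjusted p below 0.001, the 7 stress calls became 4 and the 3 time-course calls 1. The 65 usage calls became 37 with a pseudocount of 0.1 and 127 with transcripts above a mean TPM of 0.1. Leaving out a replicate of every group gave 40 to 59 usage calls, 20 to 26 transcript calls in the time course (34 with all) and 61 to 77 in the stress experiment (89 with all), and 6 to 8 gene calls in the stress experiment. With 1 library left out at a time, the gene calls were 7 to 8 in the stress experiment and 3 to 4 in the time course. Without Control 3 h replicate 2 the usage calls were 68. Without PreCondTre 0 h replicate 2, the 13 calls against the start became 10. Of the 12 most similar genes, 4 stayed among the first 3 by Spearman rho, 0 within the 18 stress groups, 1 within the 10 time-course groups and 4 after scaling. With the replicate block the gene calls were 7, 8, 5, 3 and 13 in the families of gene tests, as without it, the transcript calls 88 and 31, and the usage calls 65. Samples of the same number did not deviate together: the median correlation of their deviations was -0.006 in the stress experiment and 0.0008 in the time course, with 177 of 459 and 24 of 135 pairs above 0.1.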
